A study of Mus musculus with 8 samples.

Results

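The account follows 10 mouse genes of glutathione metabolism and of the antioxidant response that the transcription factor NRF2 controls, *Slc7a11*, *Gclc*, *Gclm*, *Gss*, *Gsr*, *Nfe2l2*, *Keap1*, *Hmox1*, *Nqo1* and *Srxn1*. They were found by symbol in a deposited expression table, where they are 10 of 23427 genes, and all 10 were present. The libraries came from primary oligodendrocyte precursor cells (OPCs), the progenitors of the myelin-forming oligodendrocytes (OLs), of WT mice of strain C57BL/6J. According to the methods, cortices of 3 pups at postnatal day 7 were taken for an isolation by immunopanning, in which lectin-coated dishes first took out microglia and endothelial cells and a dish with an antibody against PDGFRα then held the OPCs. The groups were Day 0, Day 1, Day 2 and Day 3, counted from the change to differentiation medium, in which the growth factors were left out and thyroid hormone (T3) was added, with 2 libraries per day and no untreated arm at the later days. The effect of time in culture, of the withdrawal and of T3 cannot be told apart in this design. The methods list N-acetyl-L-cysteine, a cysteine source for glutathione, and sodium selenite among the ingredients for the cells, whereas the labels give DMEM with 10% serum, and the levels below belong to cells in that culture.

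Glutathione is the main small thiol of the cell and is built from glutamate, cysteine and glycine. Cystine enters through the transporter that *Slc7a11* encodes, glutamate cysteine ligase (*Gclc* and *Gclm*) and then glutathione synthetase (*Gss*) join the amino acids, and glutathione reductase (*Gsr*) returns the oxidized form to the reduced one. NRF2, the product of *Nfe2l2*, is held low by KEAP1, which passes it to the proteasome, and under oxidative stress it escapes and switches on genes such as *Hmox1*, *Nqo1* and *Srxn1*, so that its activity is set largely at the protein level. Cells of the oligodendrocyte lineage are known for a high iron content and a low glutathione reserve, and OPCs are sensitive to loss of cystine.

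Values are FPKM as the authors deposited them, a measure in which fragments are divided by transcript length and by the mapped fragments of the library. The table states no depth, and the spacing of low values put the number of fragments at 1520000 and 1210000 at Day 0, 1220000 and 1270000 at Day 1, 1210000 and 1330000 at Day 2, and 1080000 and 950000 at Day 3, replicate 1 before replicate 2. Day 3 was the shallowest day, and intervals given for fragments cover counting error only. At that depth the member genes rested on few fragments: estimated with the longest annotated transcript, 105 to 162 per library for *Gclm*, 49 to 127 for *Gclc*, 29 to 75 for *Nfe2l2*, 12 to 39 for *Hmox1* and 12 to 32 for *Srxn1*. Genes entered the tests when 2 or more libraries reached 1 FPKM, which held for 12208 genes and for 9 of the 10 members, without *Slc7a11*. The days were compared by limma after taking log2(FPKM + 1), a scale that understates the change of a gene near or below 1 FPKM, and a gene was called at an adjusted p under 0.05 over all 12208 genes. With 2 libraries per day an exact permutation test of a single gene cannot give a p below 0.333, so each call rests on the spread that limma shares among genes and days. The study describes the 2 replicates as independent, and neither labels nor methods say that equal numbers on different days came from 1 isolation.

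Ordered by mean FPKM, *Gclc* led the members on Day 0 with 22.9 ± 2.08 (SD, n = 2), followed by *Gclm* at 20.4 ± 1.81, *Hmox1* at 17.6 ± 4.39, *Gsr* at 15.9 ± 1.73 and *Keap1* at 15.2 ± 0.308. These 5 overlapped from neighbour to neighbour. Below a gap came *Gss* at 10.3 ± 1.61 and *Nfe2l2* at 10.2 ± 0.561, which overlapped each other, then *Srxn1* at 7.39 ± 0.615, and last *Nqo1* at 1.05 ± 1.49 and *Slc7a11* at 0.336 ± 0.225. On Day 3 *Nfe2l2* stood first at 26.6 ± 7.19, overlapping *Gclm* at 21.9 ± 6.23. *Gclc* at 14.8 ± 0.149, *Keap1* at 14.5 ± 1.65, *Hmox1* at 14.5 ± 5.71, *Gss* at 12.9 ± 0.811, *Gsr* at 12.1 ± 4.98 and *Srxn1* at 9.53 ± 3.33 formed a run in which each overlapped the next. *Nqo1* at 1.30 ± 1.01 and *Slc7a11* at 0.496 ± 0.420 were the lowest on all 4 days. The plot of FPKM by day shows these levels.

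**Figure D1:**
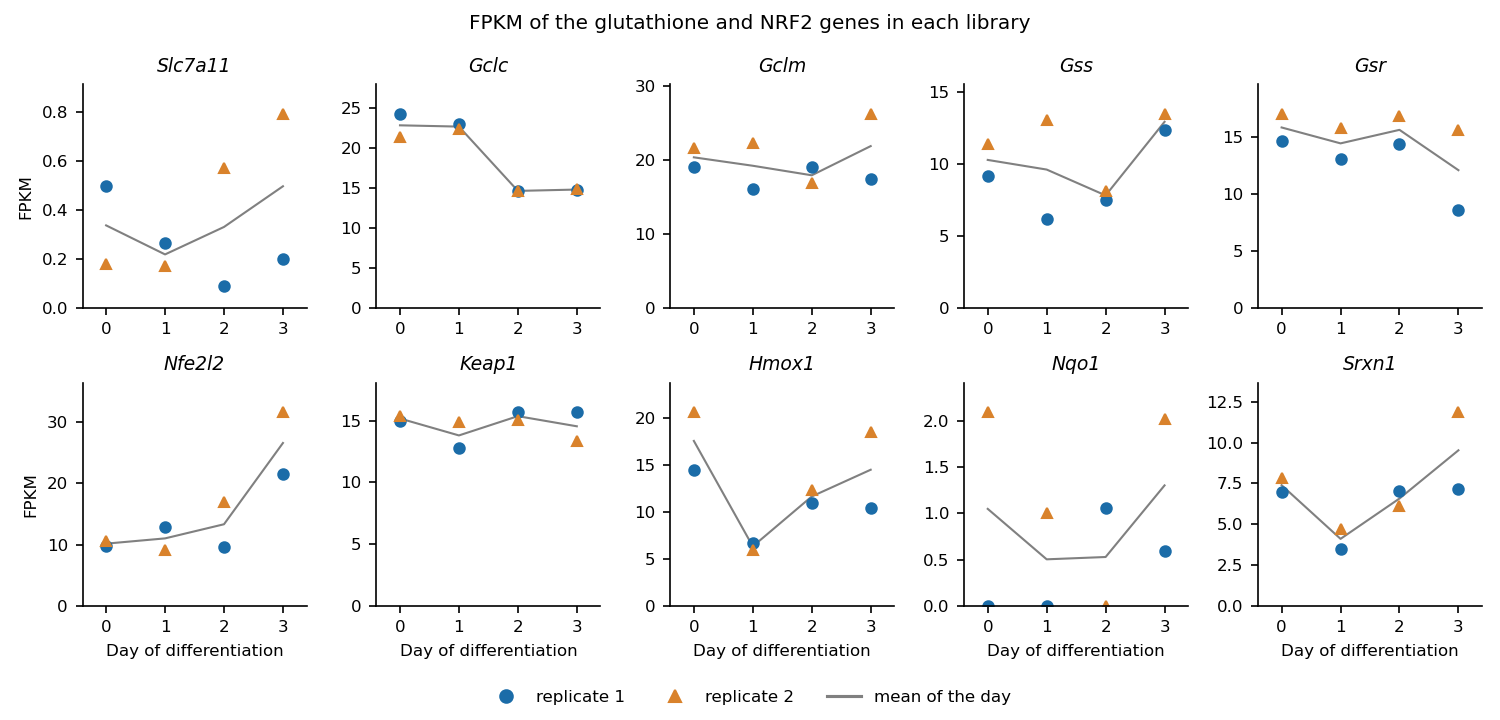
FPKM (vertical axis, starting at 0, a scale for each gene) of the 10 genes against the day of differentiation, with circles for replicate 1, triangles for replicate 2 and a line through the mean of each day. *Gclc* steps down between Day 1 and Day 2, *Nfe2l2* is highest on Day 3, *Hmox1* and *Srxn1* dip on Day 1, and *Slc7a11* and *Nqo1* stay under 3 FPKM in all 8 libraries.

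Position and sequence were looked up because NRF2 acts through a short DNA element. RefSeq promoter sequences (build GRCm38.p6, 250 bases before to 50 after the gene's start) were at hand for 7 of the 10 genes, without *Gclc*, *Gsr* and *Hmox1*. The antioxidant response element core was searched as TGACNNNGC on both strands, and 3 of the 7 windows held it, *Nfe2l2*, *Srxn1* and *Gclm*, each with 1 match. Counted by gene, 3781 of 27025 symbols (14.0%) and 1521 of 8963 tested genes with a window (17.0%) held the motif, and so did 9 of 23 (39.1%) of a list of other NRF2 target genes. The stretches around the matches are shown because they mark the regulator, a target and a synthesis gene whose levels are followed below. They are written 5′ to 3′ on the strand of the gene, with the 9 bases of the motif in capitals. For *Nfe2l2* the stretch is chr2:75704885-75704913 on the minus strand, with the match in forward direction from position -240 relative to the start and outside the annotated exons. For *Srxn1* it is chr2:152105542-152105570 on the plus strand, with the match in reverse direction from position 28, in an untranslated exon. For *Gclm* it is chr3:122245413-122245441 on the plus strand, with the match in reverse direction from position -134 and outside the exons. A match is a string of letters and no measured binding. A window without a match does not show that a gene lacks the element, since sequence outside the window was not searched.
Nfe2l2: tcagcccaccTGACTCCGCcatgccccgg
Srxn1: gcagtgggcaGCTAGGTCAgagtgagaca
Gclm: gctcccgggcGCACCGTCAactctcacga

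*Slc7a11*, the light chain of the cystine and glutamate exchanger, was at the limit of detection. Its FPKM was 0.495 and 0.177 at Day 0, 0.265 and 0.170 at Day 1, 0.0890 and 0.570 at Day 2, and 0.199 and 0.792 at Day 3. The 3 highest libraries came from different days, and every day overlapped every other day. These values stood for 7 and 2, 3 and 2, 1 and 7, and 2 and 7 fragments, 31 in all, with each value within 0.1 of a whole number of fragments. Scaled to depth, Day 3 held 1.35 times the rate of Day 0, with a 95% counting interval of 0.473 to 3.83, so a difference smaller than these bounds was not detectable at this depth. The log2 difference was 0.14 and turned to -0.028 without Day 0 replicate 2 and to -0.15 without Day 3 replicate 2. The gene lies on chromosome 3 (chr3:49892526-50443614, minus strand), and no gene of GENCODE M21 overlaps its exons.

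*Gclc* encodes the catalytic subunit of glutamate cysteine ligase, the rate-limiting enzyme of glutathione synthesis. Its FPKM was 24.4 and 21.4 at Day 0, 23.1 and 22.4 at Day 1, 14.6 and 14.7 at Day 2, and 14.7 and 14.9 at Day 3. The 4 libraries of Day 0 and Day 1 were all above the 4 of Day 2 and Day 3, and within a day the replicates were close. *Gclc* fell by 0.59 on the log2 scale from Day 0 to Day 3 (SE 0.16, adjusted p 0.0208), with both Day 3 libraries below both of Day 0. In bulk RNA, fewer cells of a type and less RNA per cell cannot be told apart, and this holds for every change below. The median of all 12208 genes stood at -0.31 in this comparison and at -0.039 after median ratio scaling of the libraries, so *Gclc* lay 0.28 under the median as deposited and 0.25 under it after scaling. The call was lost under median ratio scaling (-0.29, adjusted p 0.202), with quantile normalization (-0.36, 0.119) and when all libraries were brought to an equal sum (-0.44, 0.0673). It was also lost without Day 0 replicate 1 (0.136), Day 0 replicate 2 (0.0599), Day 3 replicate 1 (0.0616) or Day 3 replicate 2 (0.0641). Its step from Day 1 to Day 2, -0.60 ± 0.16 (SE), had an unadjusted p under the threshold and an adjusted p of 0.0799.

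*Gclm*, the modifier subunit that raises the efficiency of the ligase, had an FPKM of 19.1 and 21.6 at Day 0, 16.1 and 22.3 at Day 1, 19.0 and 16.9 at Day 2, and 17.5 and 26.3 at Day 3. Day 0 lay above Day 2, the other pairs of days overlapped, and Day 3 held the highest library beside one of the lower ones. Between Day 0 and Day 3 its log2 difference was 0.075 ± 0.24 (SE, adjusted p 0.825), and it turned to -0.012 without Day 0 replicate 1 and to -0.21 without Day 3 replicate 2. Whether the 2 subunits differed in their course was not tested. Their ratio within a library does not depend on the scaling of libraries. *Gclc* over *Gclm* was 1.28 and 0.990 at Day 0, 1.43 and 1.00 at Day 1, 0.770 and 0.871 at Day 2, and 0.843 and 0.568 at Day 3. All 4 libraries of Day 0 and Day 1 had a higher ratio than the 4 later ones. The ratio is a description and carries no test. *Gclm* shares 296 exon bases with *Gm17494* on the other strand and 244 with the pseudogene *Gm6061* on its own strand, and the table holds neither.

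**Figure D2:**
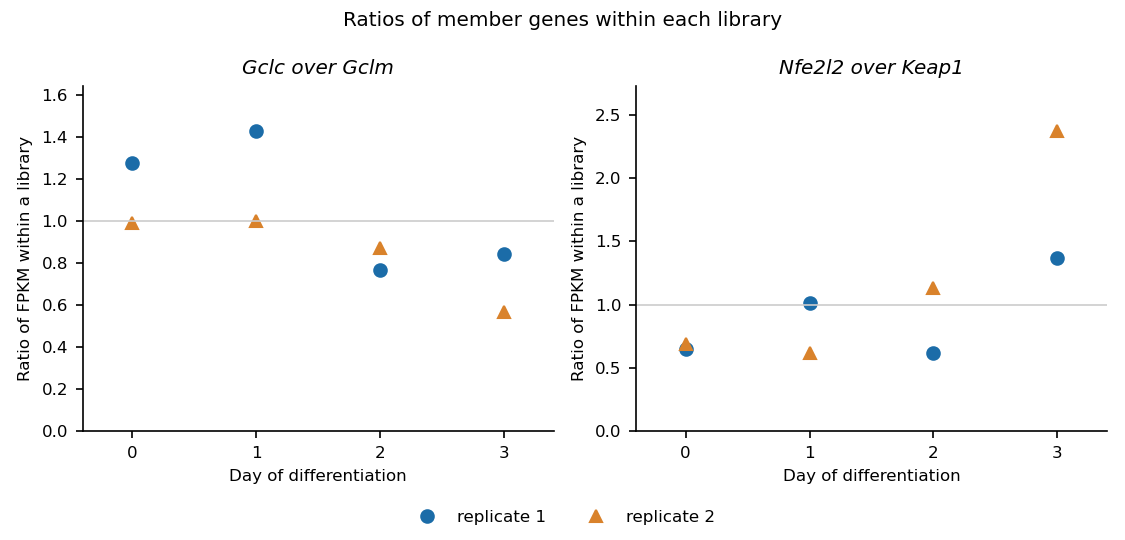
Ratio of FPKM within each library (vertical axis, starting at 0) against the day of differentiation, left *Gclc* over *Gclm* and right *Nfe2l2* over *Keap1*, with circles for replicate 1, triangles for replicate 2 and a grey line at 1. The left ratio is at most 0.871 on Day 2 and Day 3, and the right ratio reaches 1.37 and 2.37 at Day 3.

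*Gss*, the synthetase that adds glycine in the last step, had an FPKM of 9.13 and 11.4 at Day 0, 6.15 and 13.1 at Day 1, 7.52 and 8.09 at Day 2, and 12.3 and 13.5 at Day 3. Day 3 was above Day 0 and above Day 2 without overlap, while the Day 1 replicates lay far apart, near the ends of the range. Day 3 against Day 0 gave a log2 difference of 0.31 ± 0.32 (SE, adjusted p 0.470) and did not pass the test. For *Gss* it was 0.60 under median ratio scaling (0.196), 0.65 with quantile normalization (0.174) and 0.16 to 0.46 with a library of either day left out. *Gss* shares 395 exon bases with *Acss2* on the other strand, which reached 58.0 FPKM, and whether fragments were assigned by strand is not given in the sources used here. It also shares exon bases with the antisense genes *Gssos1* (322) and *Gssos2* (385), neither of which is in the table.

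*Gsr*, which regenerates reduced glutathione with NADPH, had an FPKM of 14.6 and 17.1 at Day 0, 13.1 and 15.8 at Day 1, 14.4 and 16.9 at Day 2, and 8.58 and 15.6 at Day 3. Replicate 2 was above replicate 1 on each day, and Day 3 replicate 1 was the lowest of the 8. The log2 difference from Day 0 to Day 3, -0.41 ± 0.28 (SE, adjusted p 0.265), was not called. Without Day 3 replicate 2 it was -0.81 with an adjusted p of 0.0475, which rests on the single low library of Day 3, while without that library it was -0.016 (adjusted p 0.970) and under median ratio scaling -0.12 (0.791). Among the 9 members tested *Gsr* was also the one with an unadjusted p under 0.05 between replicates, 0.37 ± 0.15 higher in replicate 2 (adjusted p 0.396).

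*Nfe2l2* encodes NRF2 itself. Its FPKM was 9.77 and 10.6 at Day 0, 12.9 and 9.18 at Day 1, 9.64 and 17.0 at Day 2, and 21.5 and 31.7 at Day 3. Both Day 3 libraries were above the other 6, which overlapped among Day 0, Day 1 and Day 2. *Nfe2l2* rose by 1.28 on the log2 scale between Day 0 and Day 3 (SE 0.31, adjusted p 0.0120), a mean 2.62 times that of Day 0. Libraries of equal number, whose link across days is not stated, differed by 1.07 and 1.50. The rise of 1.28 is 1.60 above the median of all genes, and 1.62 above it under median ratio scaling, where the change was 1.58 (adjusted p 0.00691). The call was lost without Day 0 replicate 1 (adjusted p 0.0642), Day 0 replicate 2 (0.0508) or Day 3 replicate 2 (0.0763), where the change was 1.23, 1.33 and 1.01. Most of the difference lay between Day 2 and Day 3 (0.97 ± 0.31, adjusted p 0.194), a step that did not pass the test.

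*Keap1*, the adaptor that hands NRF2 to a ubiquitin ligase, was the steadiest member. Its FPKM was 15.0 and 15.4 at Day 0, 12.8 and 14.9 at Day 1, 15.7 and 15.0 at Day 2, and 15.7 and 13.4 at Day 3. The highest library was 1.23 times the lowest. Both Day 1 libraries lay below those of Day 0 and Day 2, and Day 3 overlapped the other 3 days. Its log2 difference between Day 0 and Day 3 was -0.061 ± 0.18 (SE, 95% interval -0.48 to 0.36), and it was 0.24 under median ratio scaling, 0.23 with quantile normalization, 0.085 with libraries rescaled to the same sum and 0.047 without Day 3 replicate 2. *Nfe2l2* over *Keap1* within a library was 0.653 and 0.686 at Day 0, 1.01 and 0.619 at Day 1, 0.614 and 1.13 at Day 2, and 1.37 and 2.37 at Day 3. Only the Day 3 pair lay above all the earlier libraries, and the ratio carries no test. *Keap1* shares 510 exon bases with the antisense gene *Gm16754*, which the table does not hold.

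*Hmox1* encodes heme oxygenase 1, which breaks down heme and is a classical NRF2 target that BACH1 represses. Its FPKM was 14.5 and 20.7 at Day 0, 6.73 and 5.95 at Day 1, 10.9 and 12.4 at Day 2, and 10.5 and 18.5 at Day 3. Day 1 was below all other libraries, and Day 0 and Day 3 overlapped. *Hmox1* fell by 1.32 on the log2 scale from Day 0 to Day 1 (SE 0.29, adjusted p 0.0219), to a mean 0.361 times that of Day 0. The call was kept under median ratio scaling (-1.23, adjusted p 0.0355) and lost without Day 0 replicate 1 (0.0562), Day 0 replicate 2 (0.168), Day 1 replicate 1 (0.0620) or Day 1 replicate 2 (0.112). The difference of Day 2 against Day 1 was 0.79 ± 0.29 (adjusted p 0.170). Over the whole course the difference was -0.29 ± 0.29 (adjusted p 0.463), and it turned to 0.0076 under median ratio scaling and to 0.093 without Day 3 replicate 1.

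*Srxn1*, sulfiredoxin, which repairs overoxidized peroxiredoxins, had an FPKM of 6.95 and 7.82 at Day 0, 3.48 and 4.73 at Day 1, 7.01 and 6.14 at Day 2, and 7.17 and 11.9 at Day 3. Day 1 was again below the other 6 libraries. Its Day 1 level differed from Day 0 by -0.73 ± 0.29 (SE, adjusted p 0.156) and was not called, while from Day 0 to Day 3 it was 0.29 ± 0.29 (adjusted p 0.461), or -0.036 without Day 3 replicate 2. *Nqo1*, a quinone reductase often used as a readout of NRF2, had an FPKM of 0 and 2.10 at Day 0, 0 and 1.01 at Day 1, 1.06 and 0 at Day 2, and 0.591 and 2.02 at Day 3. It was at 0 in 3 libraries and came to 12 fragments in all, so its days could not be ranked. The rate of Day 3 over Day 0 was 1.35 with a 95% counting interval of 0.251 to 7.23, and the log2 difference of 0.32 turned to -0.50 without Day 0 replicate 1 and to -0.15 without Day 3 replicate 2.

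Read together, the members were set beside all genes tested. Over the whole course limma called 2 of the 9 members tested, *Nfe2l2* higher and *Gclc* lower, where it called 38.2% of all genes tested (4667 of 12208, 1460 higher and 3207 lower). Under median ratio scaling 34.3% of all genes were called, now 2135 higher and 2047 lower, and *Nfe2l2* alone of the members was called, as it was with quantile normalization and with libraries rescaled to the same sum. The members' median was 0.075 against -0.31 for all genes, and 0.38 against -0.039 after median ratio scaling. *Gclc*, *Gss* and *Nfe2l2*, 3 of 9, did not overlap between Day 0 and Day 3, against 71.4% of all genes tested. Without Day 0 replicate 1 or Day 0 replicate 2, 0 members were called by limma, with 1 and 2 members at an unadjusted p under 0.05 and 2739 and 2701 genes called in all. Without Day 3 replicate 1 *Nfe2l2* was the 1 member called, and without Day 3 replicate 2 it was *Gsr*. The difference between members and all genes in the share called was not tested.

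**Figure D3:**
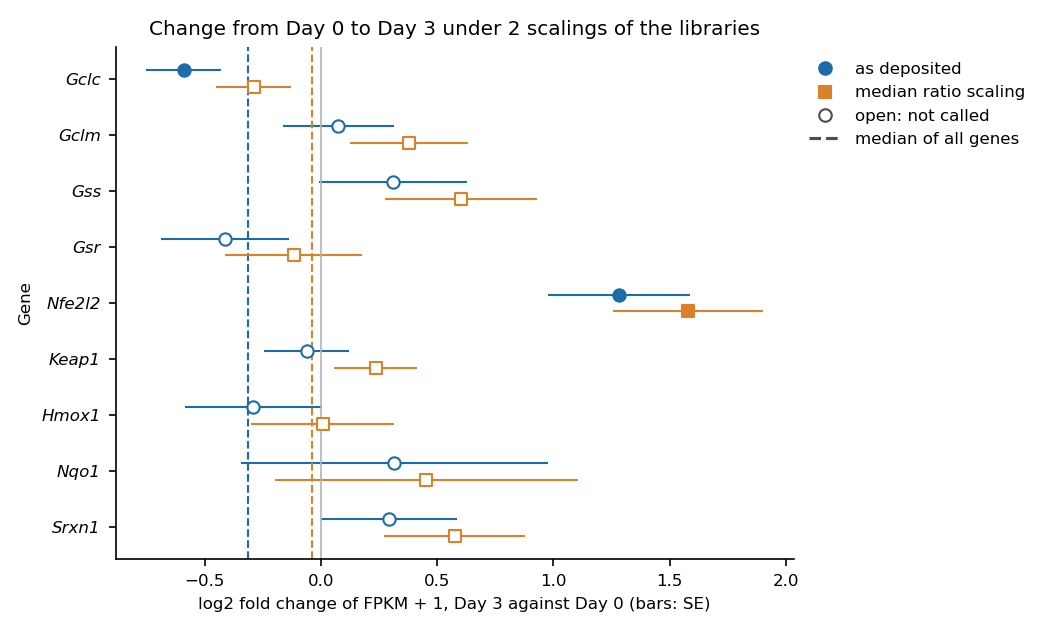
Log2 fold change of FPKM + 1 from Day 0 to Day 3 (horizontal axis) for the 9 genes tested, as deposited (circles) and after median ratio scaling (squares), with bars for the SE, open symbols for genes not called and dashed lines at the median of all genes. *Nfe2l2* is called under both scalings, *Gclc* only as deposited, and *Keap1* and *Hmox1* change sign with the scaling.

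Step by step, limma called 1 of 9 members from Day 0 to Day 1, *Hmox1*, against 12.6% of all genes (1538), with 2 members at an unadjusted p under 0.05. The number of genes called was 565 without Day 0 replicate 1, 579 without Day 0 replicate 2 and 727 without Day 1 replicate 2. From Day 1 to Day 2 it called 0 of 9 members, with *Gclc* and *Hmox1* at an unadjusted p under 0.05, against 3.89% of all genes (475, or 803 with a term for the replicate number). Of these 264 were higher and 211 lower, 371 and 103 under median ratio scaling, and 367 and 436 with the replicate term, so that the balance of directions depends on the setting. The 475 became 224, 226, 65, 215, 247 and 11 when Day 0 replicate 1, Day 0 replicate 2, Day 1 replicate 1, Day 1 replicate 2, Day 2 replicate 1 and Day 2 replicate 2 were left out in turn. From Day 2 to Day 3 it called 0 of 9 members, with *Nfe2l2* at an unadjusted p under 0.05, against 0.295% of all genes (36, or 163 with the replicate term). Here 249 genes were called without Day 3 replicate 1 and 0 when Day 0 replicate 1, Day 0 replicate 2, Day 2 replicate 1, Day 2 replicate 2 or Day 3 replicate 2 was left out (1085 to 1539 at an unadjusted p under 0.05). These steps share libraries with one another, and *Nfe2l2* and *Gclc* passed over the whole course without passing in a single step. A test of any difference among the 4 days called *Gclc* (adjusted p 0.0220), *Hmox1* (0.0332) and *Nfe2l2* (0.0340), 3 of 9 against 35.2% of all genes (4292, or 2286 and 2245 without Day 0 replicate 1 and Day 0 replicate 2). Under median ratio scaling *Gclc* dropped out of these calls (0.161).

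The genes that use and recycle glutathione, a list of 30 with 25 tested, had 3 called higher and 5 called lower from Day 0 to Day 3, 8 of 25 against 38.2% of all genes. Their median was -0.14 against -0.31 for all genes. Under median ratio scaling 5 were called higher and 4 lower, 9 of 25 against 34.3% of all genes, and the differences in share were not tested. With the replicate term 5 were called higher. The rises were *Gsto1*, an omega class transferase, from a mean of 20.8 to 51.3 FPKM (log2 1.26 ± 0.26), *Gpx4*, the peroxidase that reduces lipid peroxides with glutathione, from 94.3 to 202 (1.12 ± 0.23), and *Hagh*, a glyoxalase, from 15.8 to 29.2. The falls named by the rule were *Gpx3*, a secreted peroxidase, from 31.7 to 1.64 (-3.65 ± 0.41), *Glrx*, a glutaredoxin, from 29.2 to 3.69 (-2.67 ± 0.54), *Gpx7* from 4.23 to 0.430, and the transferase *Gstt1*, at 4.40 and 3.14 at Day 0 and listed at 0 in both Day 3 libraries. *Gpx1* was the remaining gene called lower, and not under median ratio scaling. Thus glutathione peroxidases stood on both sides. *Hagh* was not called without any 1 of the Day 0 and Day 3 libraries (adjusted p 0.0847 to 0.149), and neither was *Gstt1* (0.0904 to 0.143), nor *Gpx7* without Day 0 replicate 2 (0.0618). The call was also lost for *Hagh* with no filter (0.0636) and without a trend (0.0713), for *Gstt1* with a pseudocount of 0.1 (0.0569), no filter (0.0504) and quantile normalization (0.0635), and for *Gpx7* with a pseudocount of 0.1 (0.0502). The number called lower was 3 without Day 0 replicate 1 and 3 without Day 0 replicate 2. At the first step, to Day 1, limma called 0 of these 25 genes, with 6 at an unadjusted p under 0.05, against 12.6% of all genes.

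Precursor supply and breakdown of glutathione was followed with 22 genes, 19 of them tested. From Day 0 to Day 3, 1 was called higher and 5 lower, 6 of 19 (31.6%) against 38.2% of all genes. Their median was -0.18 against -0.31 for all genes. With median ratio scaling it was 3 higher and 4 lower, 7 of 19 (36.8%) against 34.3%, so on both lists the order of the shares turned with the scaling. The rise was *Lap3*, an aminopeptidase, from 29.4 to 54.1 FPKM (log2 0.85 ± 0.19). *Slc7a5*, the large neutral amino acid transporter, fell from 50.6 to 6.53 (-2.76 ± 0.27), and *Shmt2*, a mitochondrial enzyme of glycine and serine exchange, fell from 50.9 to 17.5 (-1.47 ± 0.25). *Mthfd2*, of the mitochondrial folate cycle, fell from 18.3 to 5.06, and *Cth*, which makes cysteine by transsulfuration, from 2.26 to 0.290. *Cth* reached 1 FPKM only in the Day 0 libraries (1.8 and 2.7) and passed the filter through them alone. The filter thus favoured a fall of *Cth*, and with either Day 0 library left out the gene was not tested. *Lap3* was not called without Day 0 replicate 1 (adjusted p 0.0678), *Mthfd2* not without Day 0 replicate 1 (0.133), Day 0 replicate 2 (0.0535) or Day 3 replicate 2 (0.133) nor under median ratio scaling (0.0550), and *Cth* not without Day 3 replicate 1 (0.104). With quantile normalization neither *Mthfd2* (0.0535) nor *Cth* (0.0744) was called. The number called higher was 0 without Day 0 replicate 1 and 2 without either Day 3 library, and the number called lower was 3 without either Day 0 library.

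A pair of uptake genes from that list changed on Day 1 and is named here after the values were seen, because they stand beside *Slc7a11*. *Slc3a2*, the heavy chain that anchors the *Slc7a11* and *Slc7a5* transporters in the membrane, had an FPKM of 44.1 and 42.2 at Day 0, 23.9 and 20.1 at Day 1, 24.6 and 21.8 at Day 2, and 38.1 and 50.9 at Day 3. It was low in the 4 libraries of the middle days and overlapped between Day 0 and Day 3. Its level fell by 0.95 from Day 0 to Day 1 (SE 0.18, adjusted p 0.0120), which was lost without Day 0 replicate 1 (0.0907), Day 0 replicate 2 (0.0743) or Day 1 replicate 2 (0.0818). *Slc1a1*, a glutamate transporter that also carries cysteine, ran the other way, with 65.2 and 80.0 at Day 0, 205 and 233 at Day 1, 168 and 147 at Day 2, and 111 and 78.8 at Day 3. Its Day 1 libraries were the highest of the 8, and it rose by 1.58 from Day 0 to Day 1 (SE 0.19, adjusted p 0.00155). The third gene of the list called at that step (3 of 19, 15.8%, against 12.6% of all genes) was *Slc7a5*, which was lower, at 9.05 and 10.5 at Day 1 after 58.6 and 42.5 at Day 0.

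Further NRF2 target genes, a list of 28 with 23 tested, had 6 called higher and 7 lower from Day 0 to Day 3, 56.5% of the genes tested against 38.2% of all genes, or 7 higher and 5 lower under median ratio scaling. Their median was -0.43 against -0.31 for all genes. With quantile normalization 4 genes of this list were called lower. *Taldo1*, an enzyme of the pentose phosphate pathway, rose from 138 to 443 FPKM (log2 1.69 ± 0.18), *Slc48a1*, a heme transporter, from 19.6 to 53.4 (1.38 ± 0.27), *Cat*, catalase, from 45.6 to 89.5 (0.96 ± 0.12), and *Fth1*, the ferritin heavy chain, from 446 to 825 (0.83 ± 0.26). *Ugdh*, which makes UDP-glucuronate, fell from 193 to 16.9 (-3.45 ± 0.29), *Txn1*, thioredoxin, from 117 to 37.4 (-1.63 ± 0.16) and *Txnrd1*, its reductase, from 117 to 49.8 (-1.22 ± 0.12). *Blvrb*, a biliverdin reductase that acts after heme oxygenase, was at 7.54 and 2.83 at Day 0 and is listed at 0 in both Day 3 libraries. The call of *Fth1* was lost without Day 0 replicate 1 (adjusted p 0.131), Day 0 replicate 2 (0.110) or Day 3 replicate 2 (0.153), where the change was 0.80, 0.86 and 0.41, and also with no filter (0.0610), with only the days compared in the fit (0.0807) and without a trend (0.0690). On the whole list 3 were called higher and 4 lower without Day 0 replicate 2. Of the 9 genes on this list with the motif in the window, 0 were called higher by limma (1 at an unadjusted p under 0.05) and 4 lower. Of the 12 without it in the window, which may hold it elsewhere, 5 were called higher and 3 lower. Under median ratio scaling *Me1*, which holds the motif, was called higher, and *G6pdx*, which also holds it, was no longer called lower. Over all genes tested with a window, 194 of 1521 with the motif were called higher and 363 lower, against 859 and 2019 of 7442 without it, and the difference was not tested. On Day 1, 5 of the 23 (21.7%, against 12.6% of all genes) were called, *Sqstm1* and *Taldo1* higher and *Txn1*, *Txnrd1* and *Ugdh* lower than on Day 0, and *Txnrd1* was not called under median ratio scaling (adjusted p 0.0698).

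Regulators and partners of NRF2 made up a list of 26, of which 25 symbols were in the table and 24 were tested. From Day 0 to Day 3, 2 were called higher and 4 lower, 6 of 24 against 38.2% of all genes, a difference that was not tested. Their median was -0.12 against -0.31 for all genes. Under median ratio scaling 4 were called higher and 2 lower, 6 of 24 against 34.3% of all genes. *Nfe2l3*, which encodes a relative of NRF2, was at 1.28 and 1.92 FPKM on Day 0, 6.09 and 13.2 at Day 1, 23.2 and 35.7 at Day 2, and 30.3 and 31.6 at Day 3. Day 0, Day 1 and the later days did not overlap, and the rise of 3.63 ± 0.35 (SE, adjusted p 0.000202) was the largest on the 4 lists. *Bach1*, the repressor that competes with NRF2 at the *Hmox1* element, rose from 12.6 to 23.3 (0.85 ± 0.20). *Brca1* fell from 10.3 to 2.77 (-1.59 ± 0.35), *Palb2* from 2.63 to 0.367, *Park7* from 127 to 71.2 and the coactivator gene *Ep300* from 25.4 to 17.0. Of these, *Palb2* reached 1 FPKM only in the Day 0 libraries (3.3 and 1.96) and passed the filter through them alone. The filter thus favoured a fall of *Palb2*, and with either Day 0 library left out the gene was not tested. Single libraries decided several of these calls. *Bach1* was not called without Day 0 replicate 1 (adjusted p 0.0907) or Day 3 replicate 2 (0.0589), *Brca1* not without Day 0 replicate 1 (0.0544) or Day 0 replicate 2 (0.0506), and *Palb2* not without Day 3 replicate 2 (0.142), with a pseudocount of 0.1 (0.0635), with quantile normalization (0.0910) or with only the days compared in the fit (0.0518). *Park7* was not called without Day 0 replicate 2 (0.0771) or under median ratio scaling (0.0921), and *Ep300* not without any 1 of the Day 0 and Day 3 libraries (0.0723 to 0.147) or under median ratio scaling (0.257), with libraries rescaled to the same sum (0.0933) or with quantile normalization (0.135). The number called higher was 1 without Day 0 replicate 1 or Day 3 replicate 2, and the number called lower was 1, 0 and 2 without Day 0 replicate 1, Day 0 replicate 2 and Day 3 replicate 2. The calls on Day 1 were 3 of 24, near the 12.6% of all genes, with *Nfe2l3* higher and *Bach2* and *Brca1* lower than on Day 0, and median ratio scaling added *Gsk3b* as higher. *Bach2*, a relative of *Bach1*, had its lowest libraries on Day 1 (6.43 and 2.95, after 13.3 and 13.7), as *Hmox1* did.

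**Figure D4:**
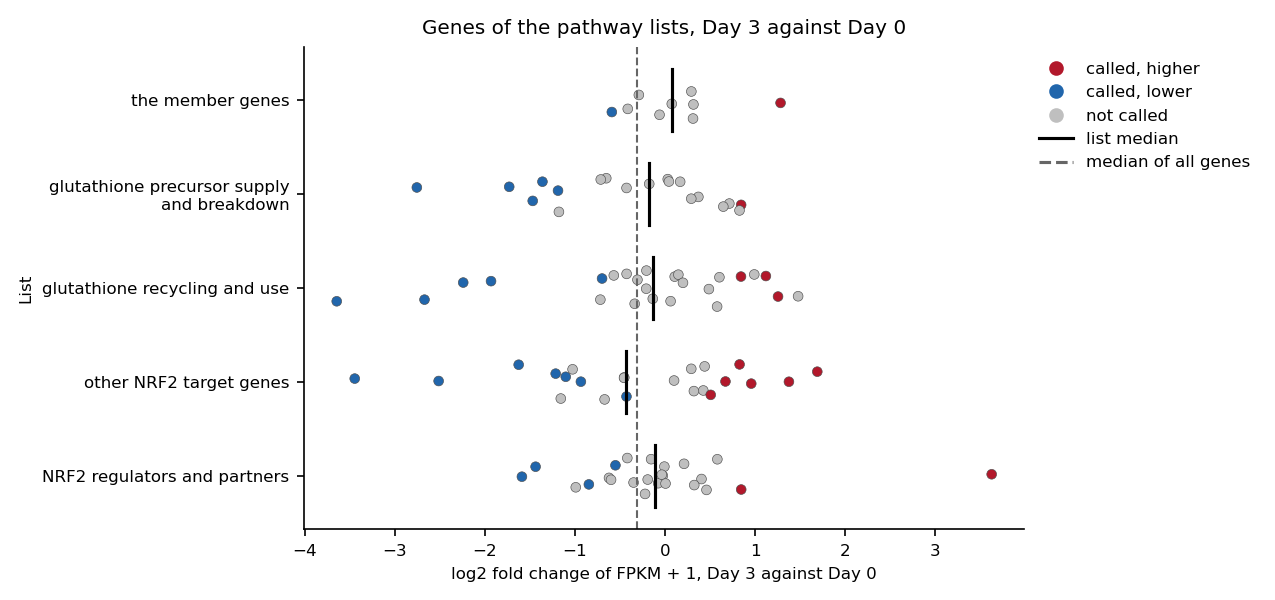
Log2 fold change of FPKM + 1 from Day 0 to Day 3 (horizontal axis) of each gene tested, a row for the members and for each of the 4 lists, in red where called higher, blue where called lower and grey where not called, with a black bar at the median of the list and a dashed line at the median of all genes (-0.31). Each list has calls on both sides, and under median ratio scaling the line moves to -0.039.

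Marker genes were read in the same libraries. The summed FPKM of the 3 OPC markers, *Pdgfra* most abundant on average, was 769 and 756 at Day 0 and 75.8 and 45.9 at Day 3, and that of the 6 OL markers, led by *Mbp*, was 1074 and 787 at Day 0 and 18963 and 26846 at Day 3. Microglia were near absent by their markers, with 7 of 8 at 0 in every library (*Aif1*, *Cx3cr1*, *Csf1r*, *Tmem119*, *C1qa*, *C1qb* and *Ctss*) and *P2ry12* at most 2.51. All 5 endothelial markers stayed under 1 FPKM, with *Cldn5*, *Cdh5* and *Tek* at 0. Of 7 mural and fibroblast markers only *Acta2* reached 1 FPKM, and *Rgs5*, *Des* and *Dcn* were at 0. Of 5 neuron markers 3 reached 1 FPKM, and the sum of the 5 was 64.4 and 31.4 at Day 0 and 233 and 115 at Day 3. Most of it was *Tubb3*, at 60.2 and 20.8 at Day 0 and 231 and 113 at Day 3, while *Snap25* and *Syt1* had lower means on Day 3 than on Day 0 (0.739 against 5.31, and 1.04 against 1.89).

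Astrocyte markers separated the replicates. Of 9 such genes 8 were detected and *Gjb6* was at 0, *Gfap* was the most abundant, and *Fgfr3*, *Slc1a3* and *Sox9* are also known from the oligodendrocyte lineage. Their summed FPKM was 91.3 and 335 at Day 0, 58.5 and 406 at Day 1, 55.5 and 549 at Day 2, and 85.3 and 845 at Day 3, so that replicate 2 held more on each day and most on Day 3. Between replicates limma called 6 of the 8 astrocyte genes tested, all higher in replicate 2, and 0 of the 9 members, with 1 member at an unadjusted p under 0.05, against 1.05% of all genes (128). That total was 73, 72, 76, 72, 40 and 41 without Day 0 replicate 1, Day 0 replicate 2, Day 1 replicate 1, Day 1 replicate 2, Day 2 replicate 1 and Day 2 replicate 2. The members' median difference was 0.26 toward replicate 2, where that of all genes was -0.049. Other markers differed too, as limma called 1 of 3 OPC and 1 of 3 neuron genes lower in replicate 2, and 1 of 6 OL genes higher. *Gss* and *Gsr* were higher in replicate 2 on 4 of 4 days, *Gclm*, *Nfe2l2*, *Hmox1*, *Srxn1* and *Nqo1* on 3 of 4, and *Slc7a11*, *Gclc* and *Keap1* on 2 of 4. These counts of days were not set beside those of all genes. The part of astrocyte RNA in these differences was not tested.

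**Figure D5:**
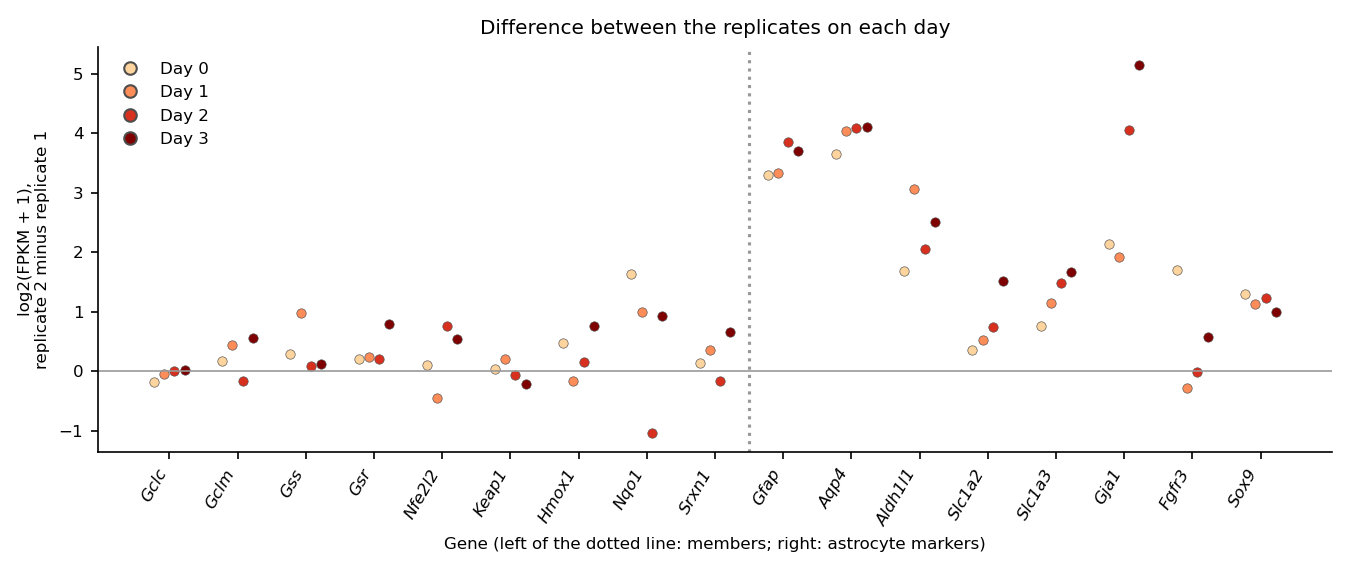
Difference of log2(FPKM + 1), replicate 2 minus replicate 1 (vertical axis), on each day (colour) for the 9 members tested, left of the dotted line, and 8 astrocyte marker genes, right of it. *Gfap* and *Aqp4* lie above 3 on all 4 days, whereas *Gclc* and *Keap1* lie near 0 and *Gsr* and *Gss* above it.

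For 3 members the genes with the most similar course were sought among 6482 genes with a mean of at least 10 FPKM, by Pearson's r of log2(FPKM + 1) over the 8 libraries, which share days, replicates and depth. *Gclm* was most like *Pde6d* (r 0.96), *Mrps26* (0.91), *Wwp1* (0.90), *0610010F05Rik* (0.87) and *Lpgat1* (0.86). *Hmox1* was most like *Sppl2b* (0.94), *Gins4* (0.94), *Wsb2* (0.94), *Klf3* (0.93) and *Igfbp3* (0.91). The genes most like *Slc7a11*, *Gnpat* (0.92), *Arfgap1* (0.88), *Lrrc58* (0.88), *Myeov2* (0.87) and *Wdr20a* (0.86), rest on the few fragments of *Slc7a11*. After the values were seen the same was done for the members called from Day 0 to Day 3, where *Mtap7d2* (0.99) was most like *Gclc* and *Map2k1* (0.97) most like *Nfe2l2*. With so many genes and 8 libraries high values of r arise readily, and no p is given.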

How the data were processed

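mRNA of 8 libraries was measured by stranded sequencing, and the authors deposited FPKM for 23427 genes, made with OmicSoft ArrayStudio. The genome build is mm10 per the submitters' processing notes, and the aligner and gene model are not given in the sources used here. The authors name DESeq2, a method for counts. Here limma 3.58.1 in R 4.3.3 (lmFit, contrasts.fit, eBayes with a trend) was fitted to log2(FPKM + 1) of the 12208 genes that reached 1 FPKM in 2 or more libraries, with 1 coefficient for each of the 4 days, and p-values were adjusted by Benjamini and Hochberg over all genes tested at a threshold of 0.05. Other steps ran in Python 3.11.15 with scipy 1.17.1, pandas 2.3.3, numpy 2.4.6 and, for figures, matplotlib 3.10.9. Gene models were those of GENCODE M21, and promoters came from RefSeq. The fit was tested on simulated data.

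Groups and replicate numbers came from the labels. The difference between replicates on 1 day correlated with that on another, across genes, which are not independent, with r from 0.164 to 0.285 over the 6 pairs of days, and a replicate term was tried as an alternative. Depth, estimated at 950000 to 1520000 fragments per library, limits genes near 1 FPKM. The FPKM that 3 fragments stand for was computed as a floor for each member, and no filter or test used it. For *Nqo1* that floor was 1.26 FPKM in Day 0 replicate 1 and 2.02 in Day 3 replicate 2, above the 1 FPKM of the filter.

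All 10 members were described. From 4 further lists the text names up to 4 rises and 4 falls from Day 0 to Day 3 among called genes whose libraries do not overlap, and the 5 genes most like *Slc7a11*, *Gclm* and *Hmox1*. Other genes were chosen after their values were seen. The members and lists were chosen with earlier results of these data known.

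Alternatives were a pseudocount of 0.1, all genes without a filter, a stricter filter (10 FPKM in 1 library), quantile normalization, median ratio scaling, libraries brought to an equal sum, the replicate term, eBayes with no trend, fits restricted to the days compared, and leaving out 1 library at a time. Where a day is left with 1 library, that library is assumed to vary like the others. Other experiments of the study were not used here.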

Additional observations from a re-analysis of the deposited data

How the results depend on the processing

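Of 304 values of members that carry a test under the alternatives, 271 kept their direction and their side of the threshold, 14 lost the call, 1 gained it and 18 turned direction. The filters, the replicate term, the trend and libraries of days not compared do not move an estimate, so direction was fixed there. The lost calls were those of *Gclc* (7 of 17 alternatives) and *Nfe2l2* (3 of 17) from Day 0 to Day 3, and *Hmox1* (4 of 17) from Day 0 to Day 1. Only these results were called in the main fit. The difference of *Slc7a11*, which the main fit did not test, turned from 0.14 to -0.028 without Day 0 replicate 2 and to -0.15 without Day 3 replicate 2. The replicate term changed no call of a member. The 2 members called from Day 0 to Day 3 became 1 with libraries rescaled to the same sum, with median ratio scaling and with quantile normalization, and 0 to 2 with 1 library left out. With fewer libraries the spread is less well known, and otherwise the cause was not tested. Depth limits *Slc7a11* and *Nqo1*, which could not be ranked by day. Of 433 values of the 26 named list genes, 387 kept their side of the threshold, 46 lost the call and 0 turned. These genes were picked in the same data as called and without overlap between Day 0 and Day 3. Leaving out 1 library could therefore not turn their direction, and the 0 is no sign of stability.

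From Day 0 to Day 3 (log2), *Keap1* turned to 0.085 with libraries rescaled to the same sum, 0.24 with median ratio scaling and 0.23 with quantile normalization, and *Hmox1* to 0.0076 with median ratio scaling. With 1 library left out the ranges were -0.21 to 0.36 for *Gclm*, -0.17 to 0.047 for *Keap1*, -0.68 to 0.093 for *Hmox1*, -0.50 to 1.13 for *Nqo1* and -0.036 to 0.62 for *Srxn1*. Between replicates, median ratio scaling turned *Gclc* to 0.0020 and *Keap1* to 0.041, quantile normalization turned *Keap1* to 0.045, and leaving out a library gave *Keap1* values from -0.080 to 0.061.

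The genes called were 2701 to 4568 from Day 0 to Day 3, 565 to 1625 from Day 0 to Day 1, 2245 to 4064 for any difference among days, 11 to 574 from Day 1 to Day 2, 0 to 249 from Day 2 to Day 3 and 40 to 100 between replicates with 1 library left out. From Day 1 to Day 2 they were 247 with no filter, 803 with the replicate term, 0 with only the days compared in the fit (2364 at an unadjusted p under 0.05) and 121 without a trend, against 475. From Day 2 to Day 3 they were 8 with a pseudocount of 0.1, 163 with the replicate term, and 0 by limma with no filter, with only the days compared and without a trend (1887, 1430 and 1643 at an unadjusted p under 0.05), against 36 (1773). Between replicates they were 72 with a pseudocount of 0.1, 59 with no filter and 77 without a trend, against 128.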
